A study of Mus musculus with 18 samples.

Results

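The 39 Hox genes of the mouse were examined in a catalog of open chromatin from bone marrow-derived macrophages (BMDMs), which are macrophages grown in culture from bone marrow. The members were the protein-coding genes of the GENCODE M21 annotation whose symbol is Hoxa, Hoxb, Hoxc or Hoxd followed by a number from 1 to 13, and they are 39 of 21938 protein-coding genes. The values below are those of 38 of them. With them were taken the ATAC-seq regions that lie between the first and the last gene of each of the 4 clusters or up to 50000 bp to either side. ATAC-seq cuts DNA with the Tn5 transposase where it is accessible, and a pile of cuts is called as a peak. The windows held 20 of 82391 reference peaks, 20 of 84660 summits (the highest points of peaks) and 17 of 59617 extended regions (peaks widened and joined by the authors). Counts of peaks cover all 20, of which 15 are described singly.

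The cells came from male C57/BL6 mice aged 6 to 8 weeks, and the genotype was wild type in all 18 libraries. Every culture had received DMSO for 1 h. The 9 groups, with 2 libraries each, were then left untreated, or were given LPS (a bacterial cell wall component that triggers inflammatory genes) or IL4 (a cytokine that drives alternative activation) at 10 ng/mL for 30 min, 1 h, 2 h or 4 h. The authors deposited their regions for all libraries together, without a column per library. Hence no Hox region can be assigned to a stimulus or a time point, no error or test over replicates can be given, and the depth of a library is unknown. A gene without a listed peak is one at which no region passed the authors' thresholds, which does not show that its DNA was closed.

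Hox genes encode homeodomain transcription factors that set the identity of positions along the body axis. They sit in clusters in which the order of the genes follows the order of the body regions where they are used, and genes of the same number in different clusters are paralogs, descended from a common ancestral gene. Polycomb proteins keep Hox genes silent where they are not used, and trithorax proteins, among them the MLL methyltransferases, keep them active. In the blood system, genes of the Hoxa cluster and Hoxb4 are known for their roles in stem and progenitor cells, and their activity is known to decline as cells mature.

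The sequences around the summits at the start sites of Hoxa4, Hoxa7 and Hoxa10 are shown because they are DNA near Hoxa start sites that was listed as accessible. The Hoxa10 sequence lies past the nearest annotated start, with its summit in an exon. Each covers 100 bp to either side of the best scored summit on mm10 and reads 5′ to 3′ on the coding strand of the gene, which is the minus strand. Capitals mark matches to the motifs described further down.
Hoxa4, chr6:52191861-52192061: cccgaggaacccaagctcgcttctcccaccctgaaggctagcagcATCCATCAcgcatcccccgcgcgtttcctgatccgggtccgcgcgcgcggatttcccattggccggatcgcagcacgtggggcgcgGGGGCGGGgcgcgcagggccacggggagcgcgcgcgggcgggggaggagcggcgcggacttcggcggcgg
Hoxa7, chr6:52221727-52221927: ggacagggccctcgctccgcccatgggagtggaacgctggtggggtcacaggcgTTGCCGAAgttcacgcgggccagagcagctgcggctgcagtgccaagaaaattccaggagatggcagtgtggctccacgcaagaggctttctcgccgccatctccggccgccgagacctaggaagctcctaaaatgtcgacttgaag
Hoxa10, chr6:52240463-52240663: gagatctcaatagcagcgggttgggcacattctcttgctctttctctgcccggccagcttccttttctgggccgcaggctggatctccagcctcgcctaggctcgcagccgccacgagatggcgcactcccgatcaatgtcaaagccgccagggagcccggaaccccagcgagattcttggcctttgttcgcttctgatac

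An annotated start site lay no farther than 1000 bp from a reference peak in 6 of 38 Hox genes (15.8%). Over all protein-coding genes the share was 56.5%. The genes with a start site peak were Hoxa4, Hoxa7 and Hoxa10 in the Hoxa cluster, Hoxb4 in the Hoxb cluster, and Hoxc10 and Hoxc5 in the Hoxc cluster. None of the 9 Hoxd genes had one. The count rests in part on the annotation for a pair of these genes. The Hoxa7 peak lies at an upstream start site of GENCODE that curated RefSeq mRNAs do not use, and Hoxc5 is counted through a long transcript that starts 749 bp from the peak of Hoxc10. With curated RefSeq start sites, the count was 4 Hox genes, and the share over 20327 genes was 56.2%. It was 5 with a window of 500 bp (54.9% of all protein-coding genes), 5 with starts of protein-coding transcripts alone (55%), 6 with the most upstream start alone (52.1%), 6 with summits in place of peaks (56.2%) and 4 with peaks at or above the median score (50.7%).

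**Figure D1:**
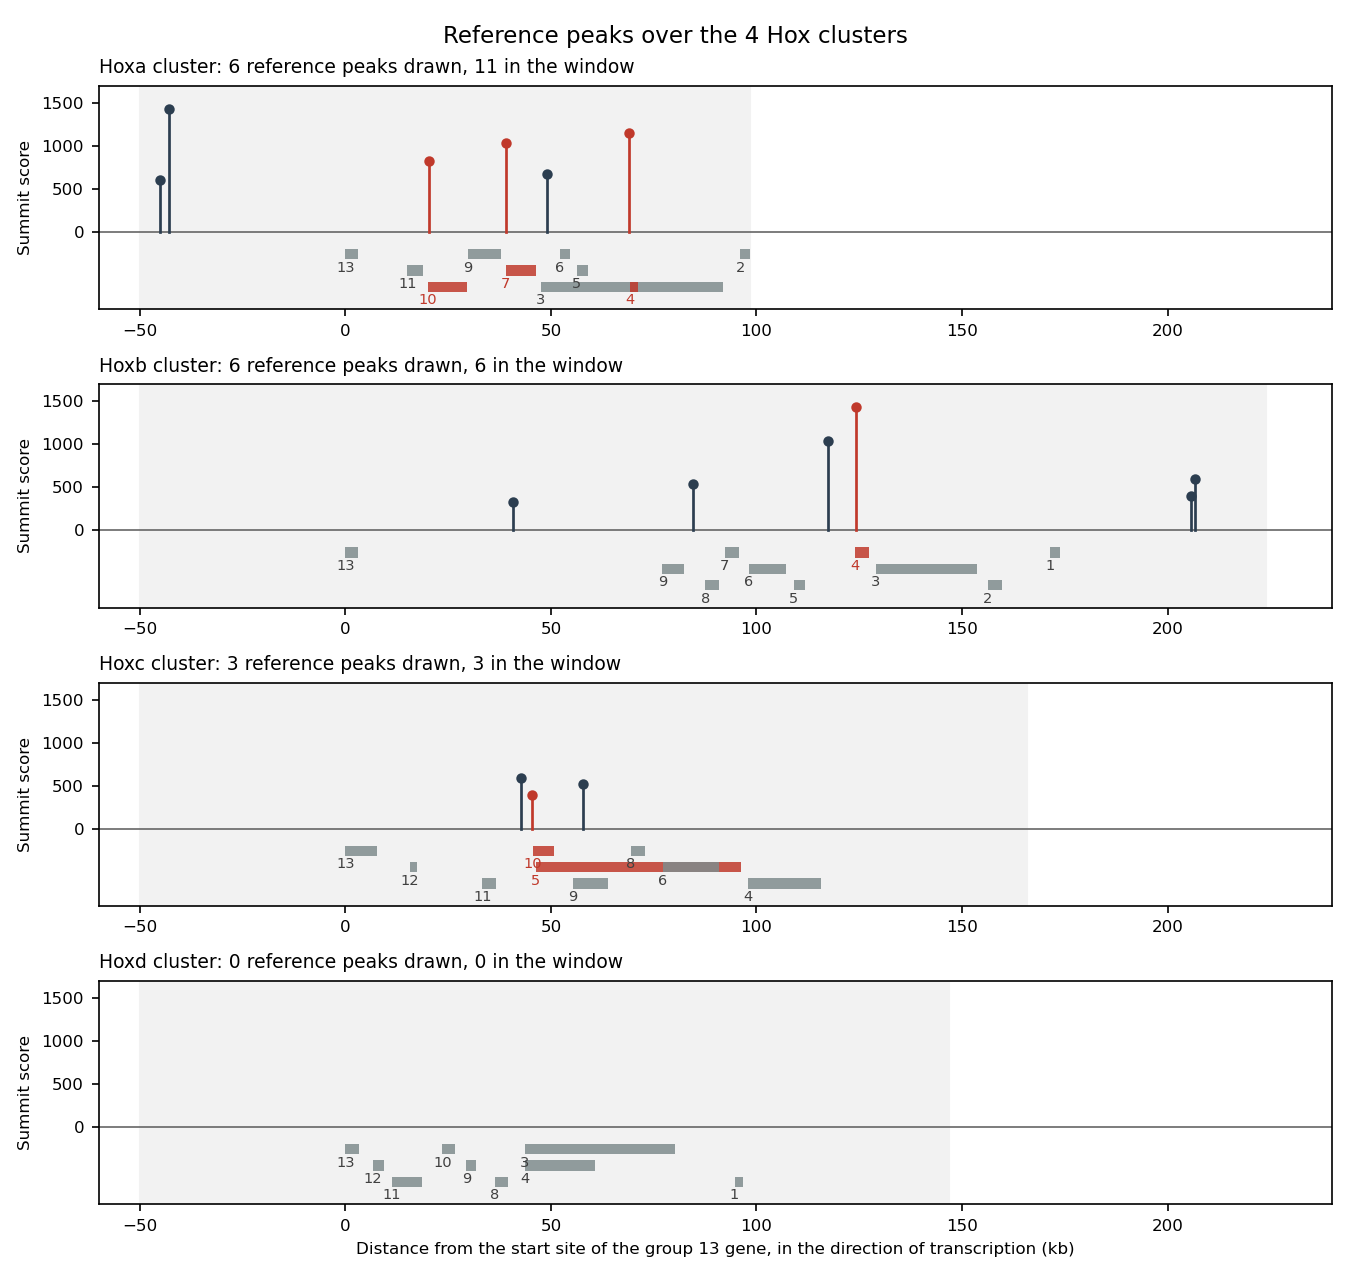
Reference peaks over the Hoxa, Hoxb, Hoxc and Hoxd clusters. The x axis is the distance in kb from the start site of the group 13 gene in the direction of transcription, stems give the summit score in the authors' units, boxes are genes labelled by paralog group at their start, red marks genes with a start site peak and the peaks there, and grey shading is the part of the window that is drawn. Of 11 peaks in the Hoxa window 6 are drawn, since its right end is not shown, and the Hoxd window holds 0.

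Each summit carries a score given by the authors, whose scale is not stated; over all summits it ran from 102 to 2781 with a median of 737. The best start site score was 1431 at Hoxb4, 1153 at Hoxa4, 1036 at Hoxa7 and 823 at Hoxa10. The peak shared by Hoxc10 and Hoxc5 scored 393. The median over the 6 genes was 929.5, whereas it was 1456 over all protein-coding genes with a start site peak. Among these genes Hoxb4 was at percentile 48.3, near the middle. Hoxa4 was at percentile 30.1, Hoxa7 at 23.3, Hoxa10 at 13.7, and the peak of Hoxc10 and Hoxc5 at 1.31.

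**Figure D2:**
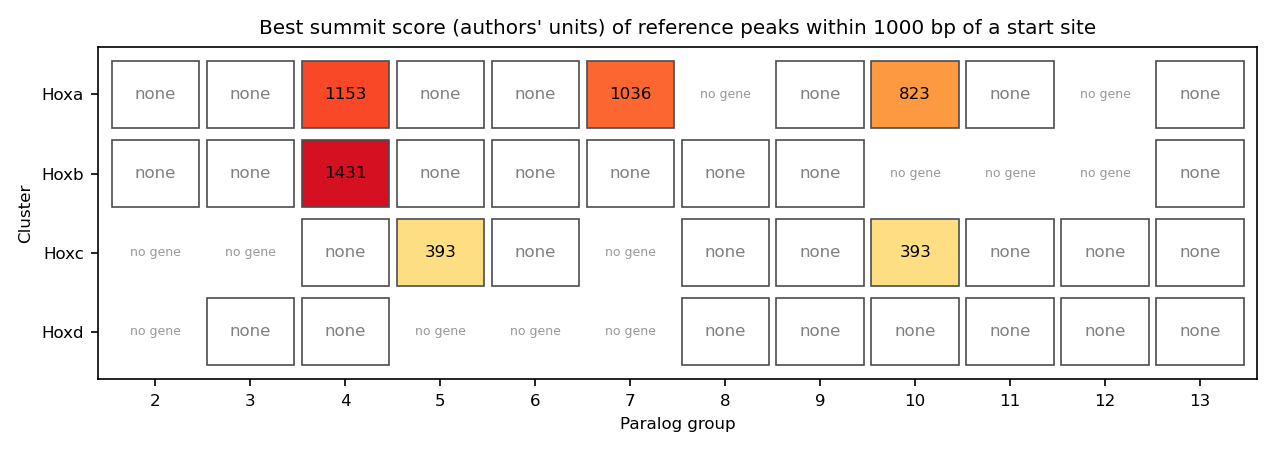
Best score of a peak no farther than 1000 bp from a start site, for Hox genes of paralog groups 2 to 13 (columns) by cluster (rows); "none" is a gene with no such peak and "no gene" a position with no gene in the mouse. Filled cells are found in groups 4, 5, 7 and 10, from 393 for Hoxc10 and Hoxc5 to 1431 for Hoxb4.

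By paralog group, the genes with a start site peak came in pairs in groups 4 and 10. In group 4 these were Hoxa4 and Hoxb4 of 4 genes, and in group 10 Hoxa10 and Hoxc10 of 3 genes. Groups 5 and 7 had 1 gene each. No gene of groups 2, 3, 6, 8, 9, 11, 12 or 13 had a start site peak. When the distance allowed was widened to 2500 bp, Hoxa3 and Hoxc9 were added and 8 genes had a peak, against 59.9% of all protein-coding genes.

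The Hoxa cluster was the most densely covered. Its window of 205 kb on chromosome 6 (chr6:52105590-52310880) held 11 reference peaks, or 53.6 peaks per Mb. The Hoxb window of 274 kb (chr11:96144316-96418256) held 6, or 21.9 per Mb, and the Hoxc window of 216 kb (chr15:102871103-103086852) held 3, or 13.9 per Mb. The Hoxd window of 197 kb (chr2:74618310-74815142) held 0. All windows together had 22.4 peaks per Mb, and the genome had 31.1. The peaks themselves were of ordinary size, with a median width of 225 bp against 227 bp over all reference peaks, and each had a single summit.

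Of the 11 summits in the Hoxa window, 8 had a score at or above the median of all summits. In the Hoxb window the scores ran from 332 to 1431 with a median of 563.5, and 2 of 6 reached the overall median. In the Hoxc window the scores were 393, 515 and 583, and 0 reached it. Over the 20 summits the median was 749 and 10 were at or above the overall median, so the scores of the listed Hox summits lay around the middle of the catalog.

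**Figure D3:**
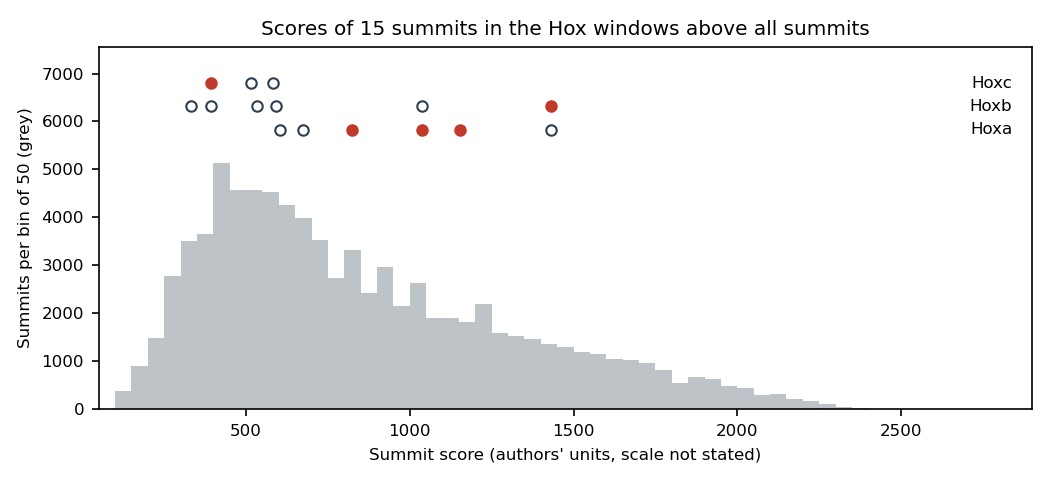
Scores of the 15 summits described singly (circles, a row per cluster) above the distribution of all 84660 summits (grey, bins of 50). Filled circles are peaks at a Hox start site. The Hoxa circles span 603 to 1431 and the Hoxc circles stay between 393 and 583.

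In the middle of the Hoxa cluster, the summit for Hoxa4 (chr6:52191806-52192054, score 1153) lay 208 bp upstream of its start site, inside introns of longer transcripts assigned to Hoxa3. The summit for Hoxa7 (chr6:52221715-52221906, score 1036) lay in a Hoxa7 exon, 27 bp past the most upstream start. The summit for Hoxa10, a gene of the posterior body and of myeloid progenitors (chr6:52240455-52240678, score 823), lay in a Hoxa10 exon, 232 bp past the nearest of its 4 annotated starts. A peak with a score of 675 (chr6:52211661-52211844) lay in an intron of Hoxa3, 1368 bp past the nearest of that gene's 4 annotated starts. The other 7 Hoxa genes described were Hoxa2, Hoxa3, Hoxa5, Hoxa6, Hoxa9, Hoxa11 and Hoxa13. Their start sites lay between 1271 and 20124 bp from the nearest reference peak, with a median of 4394 bp. Hoxa9, which with Meis1 is known for its role in myeloid leukaemia and which drives progenitor growth, lay 4283 bp from the nearest.

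Beyond the Hoxa genes, 2 peaks lay upstream of Hoxa13 on the side of the homeobox gene Evx1. The first (chr6:52303511-52303809) scored 1431 and its summit lay 42783 bp upstream of Hoxa13. The second (chr6:52305980-52306189) scored 603 and lay 7433 bp from the Evx1 start site.

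In the Hoxb cluster, Hoxb4, which is known for expanding blood stem cells when supplied in excess, was the gene with a start site peak. Its summit (chr11:96318505-96318698, score 1431) lay in a Hoxb4 exon 338 bp past the start site. A second peak with a score of 1036 (chr11:96311598-96311870) lay in no annotated gene, 6569 bp upstream of Hoxb4. These were the only Hoxb summits above the overall median. Of the weaker peaks, 1 with a score of 534 (chr11:96278910-96279012) lay 2948 bp upstream of Hoxb8, and 1 with a score of 332, the lowest of the 20, lay 36338 bp upstream of Hoxb9. A pair with scores of 393 and 593 (chr11:96399993-96400218 and chr11:96400825-96401102) lay past Hoxb1. For Hoxb1, Hoxb2, Hoxb3, Hoxb5, Hoxb6, Hoxb7, Hoxb8, Hoxb9 and Hoxb13, the start sites lay between 2893 and 40685 bp from a reference peak.

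In the Hoxc cluster, all 3 peaks lay within a stretch around Hoxc10 and Hoxc9. The summit at Hoxc10 (chr15:102966493-102966694) lay 188 bp upstream of its start site and had a score of 393. A peak with a score of 583 (chr15:102963778-102964040) lay 2862 bp upstream of Hoxc10, and a peak with a score of 515 (chr15:102978689-102978905) lay in an intron of Hoxc9, 1763 bp past the nearest of its 2 annotated starts. Hoxc4, Hoxc6, Hoxc8, Hoxc9, Hoxc11, Hoxc12 and Hoxc13 had no start site peak and lay between 1657 and 42675 bp from the nearest. Hoxc4, a paralog of Hoxa4 and Hoxb4, lay 40029 bp away.

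The Hoxd genes, known above all for limb and trunk patterning, lay in a stretch without a reference peak of 219 kb (chr2:74606374-74825692), which took in Hoxd1, Hoxd3, Hoxd4, Hoxd8, Hoxd9, Hoxd10, Hoxd11, Hoxd12 and Hoxd13 as well as Evx2. The distance from a Hoxd start site to the nearest peak was between 61937 and 98619 bp. The stretch ended at a peak with a score of 1369 on the Hoxd13 side and at a peak with a score of 706 on the Hoxd1 side. Of 82370 stretches between neighbouring reference peaks, 1.86% were at least as long, so its length alone was not exceptional. It held start sites of 7 CpG-rich coding genes, counted at the most upstream start, which was the highest number in any such stretch. A pair of these, Hoxd3 and Hoxd4, start within 2 bp of each other in the annotation.

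Stretches without a peak also divided the other clusters. On chromosome 15, Hoxc11, Hoxc12 and Hoxc13 lay in a stretch of 202 kb with 3 CpG-rich starts. Hoxc4, Hoxc6 and Hoxc8 lay in one of 167 kb. On chromosome 11, Hoxb13 lay in a stretch of 141 kb and Hoxb1, Hoxb2 and Hoxb3 in one of 81.3 kb. On chromosome 6, the longest stretch that held Hox starts was 62.8 kb, with Hoxa11, Hoxa13 and, close to its edge, Hoxa10. The 76 bases, the length of a read before trimming, around each of the 38 most upstream start sites and of the 20 summits occur at a single place in the genome, and the rest of the stretches was not checked in this way.

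CpG islands are stretches rich in CG dinucleotides that cover the promoters of many genes and are usually accessible. A promoter was called CpG-rich where the 500 bp on either side of the most upstream start site had a GC content of at least 55% and an observed over expected CpG ratio of at least 0.6. By this measure 19 of 38 Hox genes were CpG-rich, and 2 of these 19, Hoxa4 and Hoxa7, had a start site peak. Over all CpG-rich coding genes the share was 84.6%. Among the other Hox genes, 4 of 19 had a start site peak, against 39.1% of coding genes that are not CpG-rich. The order of these classes depended on the window. With 250 bp on either side, 4 of 16 CpG-rich Hox genes and 2 of 22 others had a start site peak, against 84.5% and 34.3% of coding genes, so that the share was below that of all genes in both classes and under both windows. Hoxa4 and Hoxa7 lie in the Hoxa cluster, where 5 of the genes described were CpG-rich. None of the 7 CpG-rich genes in the Hoxd cluster, 5 in the Hoxc cluster and 2 in the Hoxb cluster had one. Promoters of very similar composition differed, since Hoxa4 with a GC content of 73.7% and a ratio of 0.919 had a peak, whereas Hoxa13 with 73.8% and 0.931 and Hoxd13 with 72.4% and 0.905 had none.

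**Figure D4:**
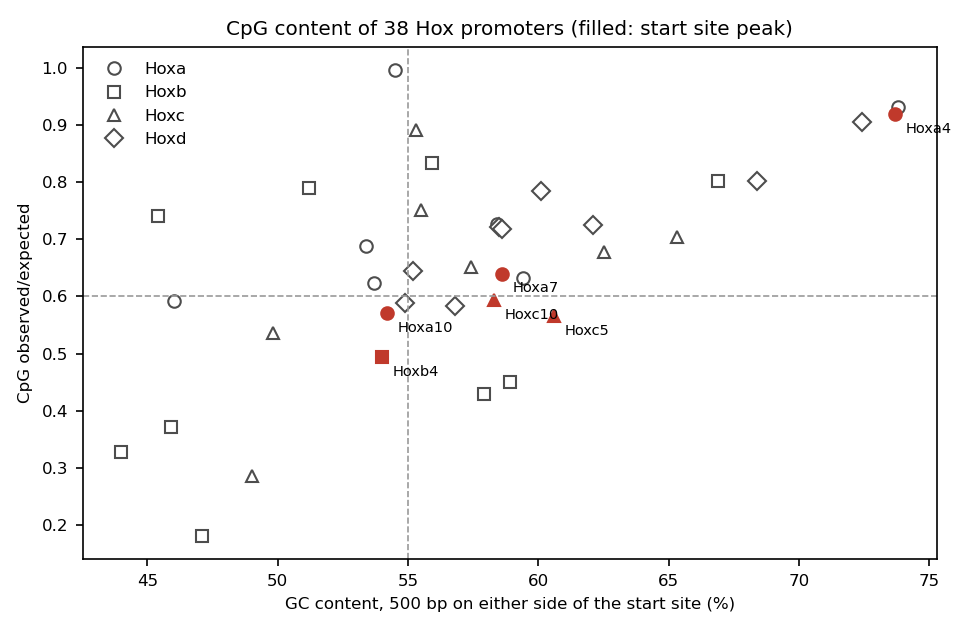
GC content in percent (x axis) and observed over expected CpG ratio (y axis) over 500 bp on either side of the most upstream start site of 38 Hox genes, with the shape giving the cluster and filled symbols marking genes with a start site peak; dashed lines are the thresholds of 55% and 0.6. The field above and to the right of both lines holds the 19 CpG-rich genes, of which 2 are filled.

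The 5 peaks at the start sites named above had CpG ratios between 0.575 and 1.09 with a median of 0.805. The other 10 peaks described had ratios from 0.149 to 0.975 with a median of 0.509. Their scores overlapped, with a range of 393 to 1431 and a median of 1036 at start sites, and 332 to 1431 with a median of 588 elsewhere. Of these 15 peaks, 5 had the best summit within 1000 bp of a start site of any annotated gene, and the share over all reference peaks was 28.4%. Summits lay in an exon for 3 peaks, in introns alone for 3 and outside annotated genes for 9, where the shares over all reference peaks were 13.2%, 50.8% and 36%.

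Of 12 motif consensus sequences looked for in either orientation up to 100 bp from the best summit, at least 1 was found in 8 of the 15 peaks described singly, against 57.3% of all reference peaks. The counts per motif are over all 20. A match is a string of letters and was not tested as a binding site. AP-1 factors (TGANTCA), which respond to LPS, matched in 5 of 20 peaks, against 19.7% of all reference peaks. In the peaks described singly, AP-1 matched in the start site peak of Hoxc10, in the peak with a score of 393 past Hoxb1 and in the peak with a score of 1431 upstream of Hoxa13. The searched string allows any middle base. The Hoxc10 match reads TGAATCA, without the C or G in the middle of the classic AP-1 site, and the other matches named read TGACTCA. The peak upstream of Hoxa13 is shown because no other distal peak described here had so high a score.
Upstream of Hoxa13, plus strand, chr6:52303563-52303763: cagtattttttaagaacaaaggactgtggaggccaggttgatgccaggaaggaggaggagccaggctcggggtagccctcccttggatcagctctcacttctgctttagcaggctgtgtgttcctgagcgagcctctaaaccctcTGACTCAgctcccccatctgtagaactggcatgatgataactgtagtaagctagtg

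The HOX/PBX consensus (TGATNNAT), bound by Hox proteins together with PBX partners, matched in 3 of 20 peaks, against 6.06% of all reference peaks. The start site peak of Hoxa4 was among them. The SP/KLF consensus (GGGGCGGG) also matched in 3 peaks, against 6.44%, and again the peak of Hoxa4 was among them. The PU.1/ETS consensus (GAGGAAGT), bound by the macrophage factor PU.1, matched in 1 peak, against 9.22%. The MEIS consensus (TTGACAG) matched at Hoxb4 alone, against 2.57%, and the CRE consensus (TGACGTCA) at Hoxc10 alone, against 0.927%. The C/EBP consensus (TTGCNNAA) matched in 2 peaks, against 11.4%, and the posterior HOX consensus (TTTATNG) in 1, against 6.26%. The string searched for NF-kB (GGGNNTTCC) matched in 1, against 6.06%. That string has a single spacing, and NF-kB sites with a longer spacing were not counted. The homeodomain (TAATTA), RUNX (TGTGGTTT) and CTCF consensus sequences matched in 0 of 20 peaks, against 2.54%, 3.38% and 3.09%. CTCF, which separates domains within Hox clusters, matched its strict consensus at 3 places in the windows, 2 in Hoxb and 1 in Hoxd, and none of them lay in a reference peak. Of the 13119 such matches in the genome, 20.4% overlapped a reference peak, and nothing particular to the windows is read from 3 matches.

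The windows also held 58 genes that are not protein-coding, of which 3 had a start site peak, against 13% of such genes in the genome. All 3 were in the Hoxa window. Hottip next to Hoxa13, Hotair in the Hoxc cluster and Haglr next to Hoxd1, noncoding RNAs studied for Hox regulation, had no start site peak. Among the 58 were 7 microRNA genes, Mir196b, Mir196a-1, Mir10a, Mir196a-2, Mir615, Gm44463 and Mir10b, and 0 of 7 had a start site peak, against 14.3% of microRNA genes. Mir10a came closest, 1340 bp from the Hoxb4 peak, whereas Mir10b next to Hoxd4 was 99623 bp from a reference peak.

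The miR-10 and miR-196 families are encoded at matching places in different clusters, and their mature sequences from RefSeq (GRCm38.p6) are given with the seed, bases 2 to 8, in capitals. The seed is the part that pairs with target mRNAs. Of the 7 microRNA genes, 6 had an entry in RefSeq, and Gm44463 had none.
miR-10a-5p, Hoxb cluster: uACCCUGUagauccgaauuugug
miR-10b-5p, Hoxd cluster: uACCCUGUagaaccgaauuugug
miR-196a-5p, Hoxb and Hoxc clusters: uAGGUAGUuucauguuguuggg
miR-196b-5p, Hoxa cluster: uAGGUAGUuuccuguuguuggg

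Within each family the seed is shared, and the mature forms differ at 1 of 23 positions for miR-10 and at 1 of 22 for miR-196. Mir196b lay 8259 bp, Mir196a-1 13746 bp and Mir196a-2 5339 bp from the nearest reference peak.

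Genes whose products act with Hox proteins or on Hox genes were counted in the same way, beside shares of 56.5% over all protein-coding genes and 84.6% over the CpG-rich ones. Of 8 TALE homeodomain genes, whose products bind DNA with Hox proteins, 5 had a start site peak, with best scores from 1332 for Meis1 to 2127 for Pknox1. Meis2, Meis3 and Pknox2 had none, and the share of 62.5% was near that of all genes. All 10 genes of the trithorax and activator list had a start site peak, with scores from 823 for Rbbp5 to 2061 for Kmt2a, which encodes MLL1, and 7 of the 10 were CpG-rich. All 13 Polycomb genes had one too, with scores from 467 for Phc1 to 2206 for Cbx8, and 11 of the 13 were CpG-rich. Of 21 other homeobox genes of development, 3 (14.3%) had a start site peak, with 13 of the 21 being CpG-rich: Dlx1 with 1236, Dlx4 with 923 and Gbx2 with 791.

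**Figure D5:**
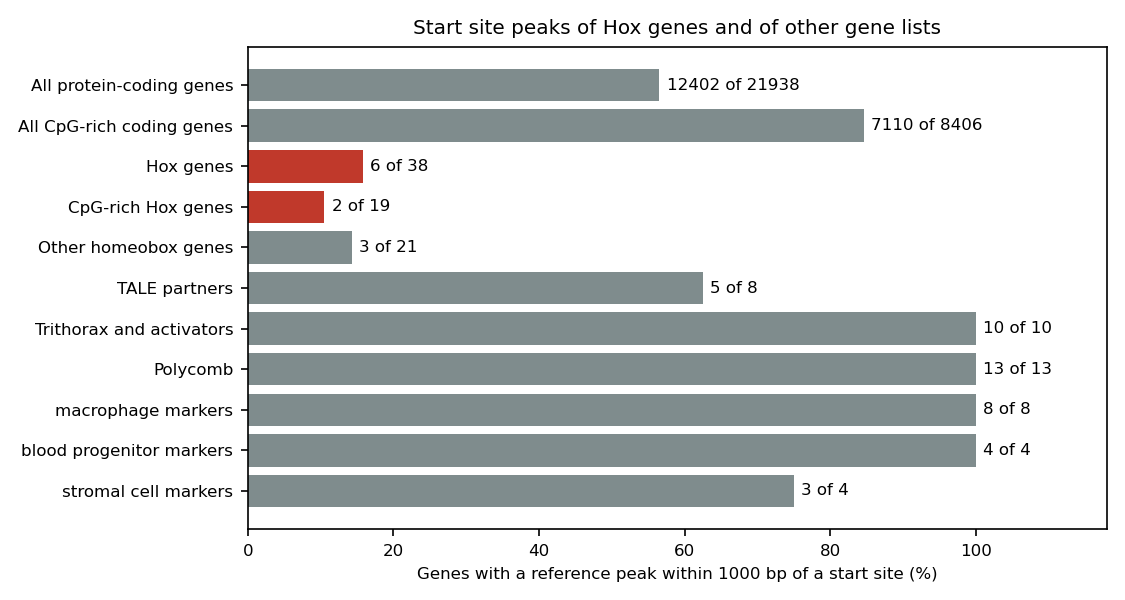
Percent of genes with a start site peak, at most 1000 bp away (x axis), for Hox genes (red) and for other gene lists (grey), with counts beside the bars. Shortest of the bars drawn are CpG-rich Hox genes (2 of 19), other homeobox genes (3 of 21) and Hox genes (6 of 38).

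Of the defining genes of macrophages, 8 of 8 had a start site peak, with best scores from 1176 to 2021. None of the 8 was CpG-rich, and the share over all coding genes that are not CpG-rich was 39.1%. Of 11 markers of T cells, B cells, NK cells and neutrophils, 2 had a start site peak, Klrb1c with 1094 and Pax5 with 634. All 4 markers of blood progenitors had one (3 of them CpG-rich, a class with a share of 84.6%), with scores of 748 at Flt3, 716 at Gata2, 583 at Cd34 and 367 at Kit. Of 4 stromal cell markers, none of them CpG-rich, 3 had one, with scores of 613 at Col1a1, 411 at Pdgfrb and 402 at Pdgfra, and Col3a1 had none. The scores at Hoxb4, Hoxa4, Hoxa7 and Hoxa10 were above those of all 4 progenitor markers and all 3 stromal markers, and the score of 393 at Hoxc10 and Hoxc5 fell between those of Kit and Pdgfra. In a pooled culture, fewer cells with an open site and a site less open in each cell cannot be told apart, and the part of other cells in the Hox peaks was not tested.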

How the data were processed

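ATAC-seq of BMDMs comprised 18 libraries in 9 groups, sequenced as single reads of 76 bases. According to the submitters' processing notes and the study's methods, the authors used BBDuk, Trimmomatic 0.39, ShortStack (mapping to mm10), SAMtools 1.9 and MACS2 2.2.6, which kept duplicates and used no local background. Peaks had to pass a stringent q-value and to overlap between replicates. No shift for Tn5 is named, so a summit can lie beside the most frequent cut. The deposited score of each summit has no stated scale and was used only to describe and rank summits. The deposited positions are those of 3 lists pooled over all libraries, in which 0 columns belonged to other samples. Depth, and thus precision, is unknown, and no test, replicate comparison or comparison of stimuli was possible.

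Peaks were matched to GENCODE M21 start sites and to the sequence of GRCm38.p6, whose primary chromosomes have mm10 coordinates (Python 3.11.15, numpy 2.4.6), with scripts checked on simulated data. Positions count from 1. Counts of genes with start site peaks and of motif matches are given beside the shares over all genes or peaks. All reported members are named. Some genes, regions and sequences are not reported here. Peaks were named at start sites, among the 5 best scored or 3 widest of a window, or with a CTCF, PU.1/ETS or AP-1 match, and genes of other lists where they formed the smaller class. The peak upstream of Hoxb9 and the genes at the ends of score ranges were named after their values were seen. The Hoxa3 intron peak with a score of 675 and the peak with a score of 603 towards Evx1 were also named outside this rule. Members and lists were chosen with earlier results of these data known. Alternatives were other windows, start site definitions, score minimums and CpG thresholds.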

Additional observations from a re-analysis of the deposited data

How the results depend on the processing

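No paired analysis was possible because the deposited lists hold no column per library, and for the same reason no library could be left out. Of 142 alternative values, 113 were within 1.5 times the reported count, or equal to it for the median score. Some of these could not differ, such as counts of 0 taken with narrower windows or a higher score limit. The median over best summits could not differ either, as each peak had a single summit. Within the limit of 1.5 times, the count of 6 Hox genes with a start site peak lay between 4 and 8. The 20 peaks became 14 without flanks and 26 with 100000 bp. The gene count was 4 with peaks at or above the median score and 4 with curated RefSeq start sites, an alternative chosen after seeing the data. For Hoxc it became 1 with a 500 bp window, with protein-coding transcripts alone and with RefSeq, and 0 with peaks at or above the median score.

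Without flanks, the Hoxa window held 7 reference peaks, 7 summits and 5 extended regions. With flanks of 100000 bp the Hoxd window held 4 peaks, 4 summits and 3 extended regions, so its count of 0 holds for flanks up to 50000 bp. At or above the median score, 10 peaks were left in all windows, 2 in Hoxb and 0 in Hoxc. The median summit score was 929.5 without flanks, 968 with 20000 bp and 764.5 with 100000 bp.

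With a CpG ratio of at least 0.75, 9 Hox genes were CpG-rich, of which 1 had a start site peak, against 88.4% of all CpG-rich coding genes. With 250 bp on either side of the start site, 4 CpG-rich Hox genes of 16 had one, against 84.5%. The shares of all peaks moved with the motif windows. Within 50 bp of summits, PU.1/ETS (6.55% of all peaks), MEIS (1.2%) and NF-kB (3.57%) matched in 0 of 20 peaks and HOX/PBX (3.04%) in 1. Within 200 bp, posterior HOX (14.3%) and C/EBP (18.5%) matched in 4, homeodomain (6.86%) in 3, and MEIS (5.23%) and NF-kB (8.95%) in 2, while HOX/PBX stayed at 3, against 12.9%. AP-1 matched in 3 of 17 extended regions (21% of all).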

Other observations

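In the sequences around the summits at Hoxa4 and Hoxb4, an inverted CCAAT box (ATTGG) is followed within 25 bp by an E-box (CACGTG). This pair was noticed after the sequences were read, so the counts are a description. In either orientation it was found within 100 bp of the best summit in 2 of the 15 Hox peaks described singly, against 0.18% of all summits and 0.464% of summits within 1000 bp of a coding start site. Within 500 bp of a start site it was found in 11 of 38 Hox genes, against 1.48% of coding genes. The genes were Hoxa4, Hoxa7, Hoxa9, Hoxb3, Hoxb4, Hoxb7, Hoxc12, Hoxd1, Hoxd4, Hoxd9 and Hoxd13. Of these 11, 8 had no start site peak, among them all 4 of the Hoxd cluster, so the pair was present both in listed and in unlisted promoters. Paralogs share sequence by descent and are not independent.

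The names of the summits hold numbers that follow genome position on 21 of 21 chromosomes, with gaps. Of 217313 numbers up to the highest, 69718 (32.1%) are in the list. Between the listed summits that flank the windows, 10 of 39 numbers were listed around Hoxa, 6 of 59 around Hoxb, 3 of 27 around Hoxc and 0 of 16 around Hoxd. In that order these spans were 320, 667, 384 and 220 kb and reached past the windows, so the counts are not of the windows alone. The 0 for Hoxd was fixed in advance, since its flanking summits bound the stretch without a peak. The study's methods kept peaks that passed a q-value threshold and overlapped between replicates. Whether that step removed the numbers that are not listed, 16 of them around Hoxd, was not tested.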
